A study of Mus musculus with 6 samples.

Results

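The Wnt ligands, their receptors and their secreted antagonists were followed in enamel organ cells of mice with a knockout of Stim1 and Stim2, which encode calcium sensors of the endoplasmic reticulum. The group holds every gene whose name starts with Wnt, Fzd, Sfrp or Dkk and a digit, together with the co-receptors Lrp5 and Lrp6, the antagonist Wif1, the feedback target Axin2 and the transcription factors Lef1 and Tcf7. This gives 43 genes of the 46603 in the count tables: 19 ligands, 12 receptors and co-receptors, 9 antagonists and 3 genes of the response. The rule uses gene names and no measured value. RNA came from primary enamel organ cells of the lower incisors, and 6 libraries were made. Stim1/2 knockouts gave the 3 libraries DKO 1, DKO 3 and DKO 4, and wild-type animals the 3 libraries WT 1, WT 2 and WT 3. All mice were C57BL/6. The labels give neither the age of the mice, nor a promoter or Cre line, nor whether a library is 1 animal, so p-values measure the spread between these samples only.

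Wnt proteins are secreted, lipid-modified signals that bind Frizzled receptors. With LRP5 or LRP6 as the co-receptor, binding stabilises beta-catenin, which enters the nucleus and works with LEF/TCF factors on targets such as Axin2. Other Wnt proteins, WNT5A the best known, act mainly through routes that do not use beta-catenin and steer cell polarity and movement. SFRP and WIF1 proteins bind the ligands outside the cell, whereas DKK1 and its close relatives bind LRP5 and LRP6. In the tooth, Wnt signals pass between epithelium and mesenchyme from the first placode on, and WNT10A loss in humans leads to missing teeth.

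The targeted genes were lower in DKO, as labelled, but not absent. Stim1 stood at 107, 143 and 125 CPM (counts scaled to library size with edgeR's TMM factors) in DKO 1, 3 and 4, against 413, 492 and 362 CPM in WT 1, 2 and 3. Its log2 fold change was -1.75 (SE 0.15 and edgeR adjusted p = 0.00553). Stim2 stood at 105, 136 and 125 CPM in the DKO libraries, against 229, 310 and 245 CPM in the WT libraries, a log2 fold change of -1.10 (SE 0.14 and edgeR adjusted p = 0.018). Stim2 missed the threshold when any DKO library or WT 3 was left out, with edgeR adjusted p between 0.0574 and 0.0987. It also missed it with a term for Xist-high libraries (edgeR adjusted p = 0.0557) and by limma without a filter (adjusted p = 0.126).

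Libraries held 18609759 to 22829411 counts. Within a group, log2 CPM correlated between libraries at 0.986 to 0.991, and every pair differed by more than sampling noise (lowest chi-square divided by its degrees of freedom 14.1). Xist, which marks female cells, was above 100 CPM in DKO 1, WT 1 and WT 2, so both groups mixed the sexes, unequally. The 7 ameloblast markers, Amelx, Ambn and Enam among them, summed to 137372 to 205085 CPM in DKO and to 95834 to 162004 CPM in WT, so the markers that define the labelled tissue were abundant. Mesenchyme was present as well: 11 of its markers, with Col1a1 and Col3a1 among them, summed to 10954 to 13871 CPM in DKO and 7076 to 11764 CPM in WT. In whole tissue, fewer cells of a type and less RNA per cell cannot be told apart.

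Expressed members spanned all 4 roles. A total of 34 members passed edgeR's filter on low counts and were tested: 13 ligands, 11 receptors, 7 antagonists, and Axin2, Lef1 and Tcf7. The other 9 were Wnt1, Wnt2, Wnt3, Wnt8a, Wnt9b, Wnt16, Fzd9, Dkk1 and Dkk4, which never exceeded 12 counts in a library. Wnt8a and Dkk4 had 0 counts in every library. These are raw levels near the floor, and no fold is given for them. Compared per length, in FPKM, which scales fragments to gene length and library size, 21 members averaged above 10 over the 6 libraries, 12 lay between 1 and 10, and 10 below 1.

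**Figure D1:**
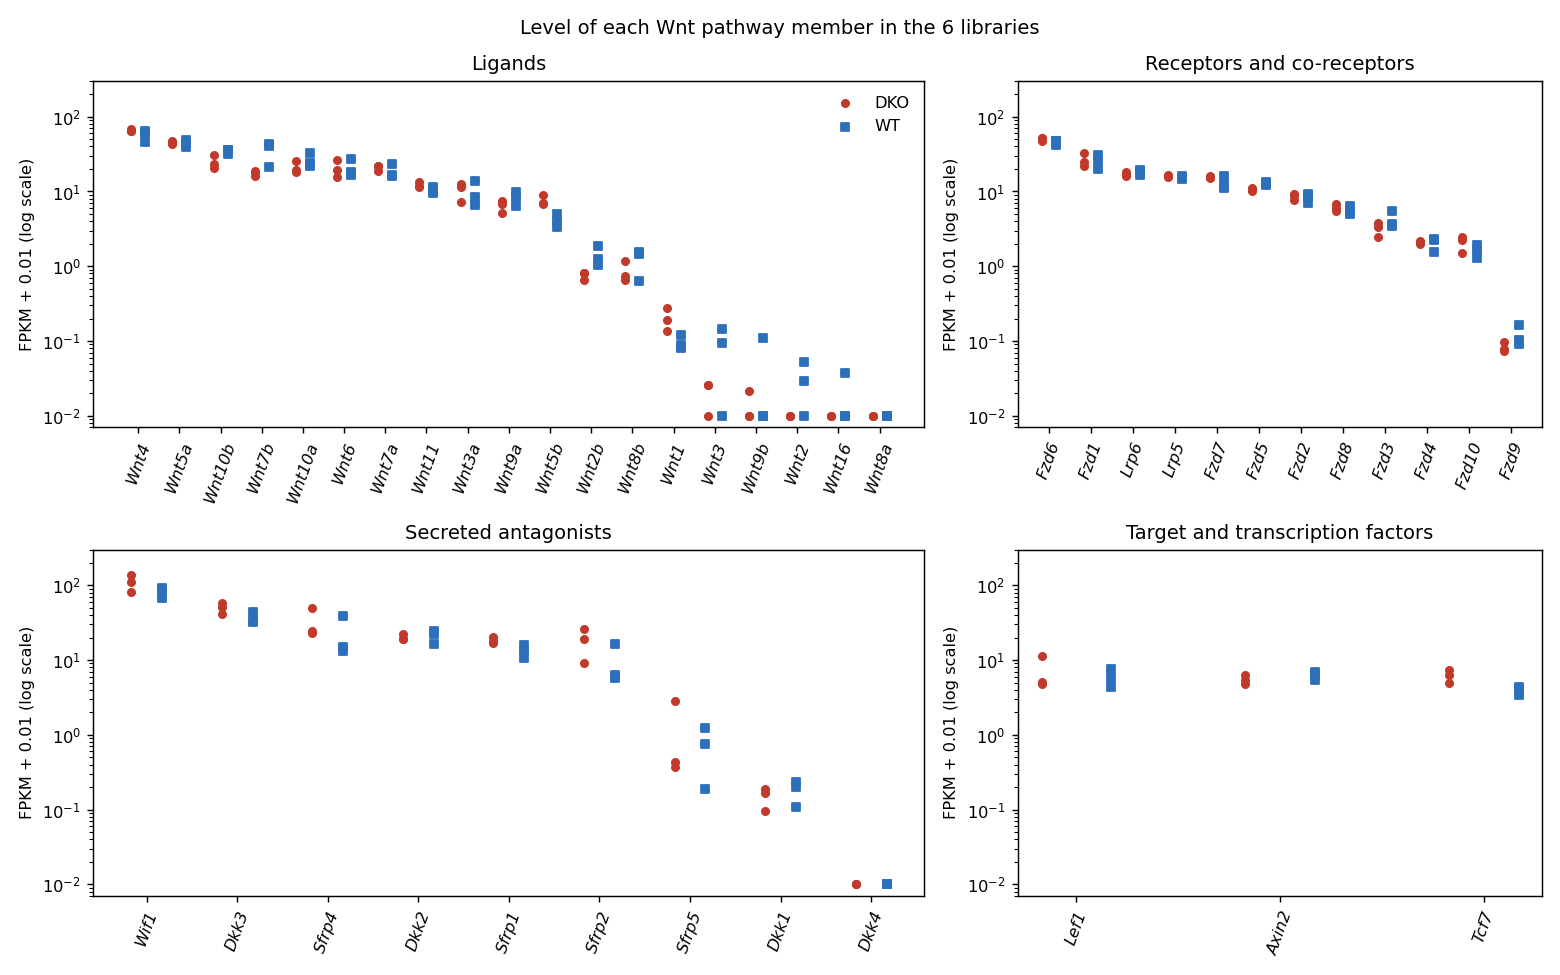
Level of all 43 members in FPKM plus 0.01 on a log axis, with 1 point per library (DKO circles left, WT squares right), ordered within each role by the mean over 6 libraries. Wif1 at 94.9 FPKM and Wnt4 at 61.2 FPKM head their roles, and the 9 members that were not tested lie at the low end.

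Promoter sequence was available for 29 of the 43 members, from the RefSeq table on GRCm38.p6. The 250 bases before each of their 36 start sites were searched on both strands for the letters CTTTGAT and CTTTGAA, which match the core that LEF/TCF factors recognise. The 2 motifs cannot overlap each other on 1 strand. Of 36 member promoters 3 held 1 of them (8.33%), those of Wnt5b, Wnt11 and Dkk1, and of all 32851 promoters 7.48% did. A match is a description of the letters and not of binding. The 150 bases before the start site are shown for Wnt5b, the member with the smallest adjusted p, for Wnt11, the other tested member with a match, and for Wnt10b, a ligand with lower values in DKO, with the match in capitals.
Wnt5b, chr6:119449387-119449536, minus strand, 1 of 3 start sites of the gene, match beginning 71 bases before the start: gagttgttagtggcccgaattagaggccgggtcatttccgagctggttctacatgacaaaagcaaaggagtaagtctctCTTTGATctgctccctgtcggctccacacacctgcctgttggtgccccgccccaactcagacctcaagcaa
Wnt11, chr7:98834962-98835111, plus strand, 1 of 2 start sites of the gene, match on the other strand beginning 51 bases before the start: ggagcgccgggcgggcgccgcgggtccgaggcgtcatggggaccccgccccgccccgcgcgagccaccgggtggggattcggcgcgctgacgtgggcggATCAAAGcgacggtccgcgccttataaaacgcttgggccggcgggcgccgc
Wnt10b, chr15:98778151-98778300, minus strand, no match in the 250 bases: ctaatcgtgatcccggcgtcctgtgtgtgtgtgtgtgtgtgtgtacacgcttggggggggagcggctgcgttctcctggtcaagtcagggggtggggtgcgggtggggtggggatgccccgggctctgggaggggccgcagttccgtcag

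Set against WT, edgeR called no member in DKO. At a Benjamini-Hochberg adjusted p below 0.05 over all 14721 tested genes, edgeR called 0 of the 34 tested members, where 1.04% of all genes were called. Before adjustment, 8 members had p below 0.05, 4 higher and 4 lower in DKO, beside 18.0% of all genes, 8.67% higher and 9.37% lower. DESeq2's Wald test called 6 members (Wnt5b, Wnt7b, Sfrp1, Tcf7, Dkk3 and Wnt10b), beside 5.86% of all genes, 3.24% higher and 2.62% lower in DKO. Of these 6 members, 4 were higher and 2 lower. The limma test on log2(FPKM + 1) called 0 of 33 members, beside 0.576% of all genes and with 8 members at an unadjusted p below 0.05. The groups did not overlap for 8 of the 34 members, 3 higher and 5 lower in DKO, which is 23.5% of them, beside 23.3% of all tested genes, 11.4% higher and 11.8% lower. The median log2 fold change of the tested members was 0.08 and that of all tested genes -0.01. The shares of members with a low unadjusted edgeR p or with groups that did not overlap were near those of all genes. The share called by DESeq2, 6 of 34 members, was larger than the 5.86% of all genes, a description without a test.

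**Figure D2:**
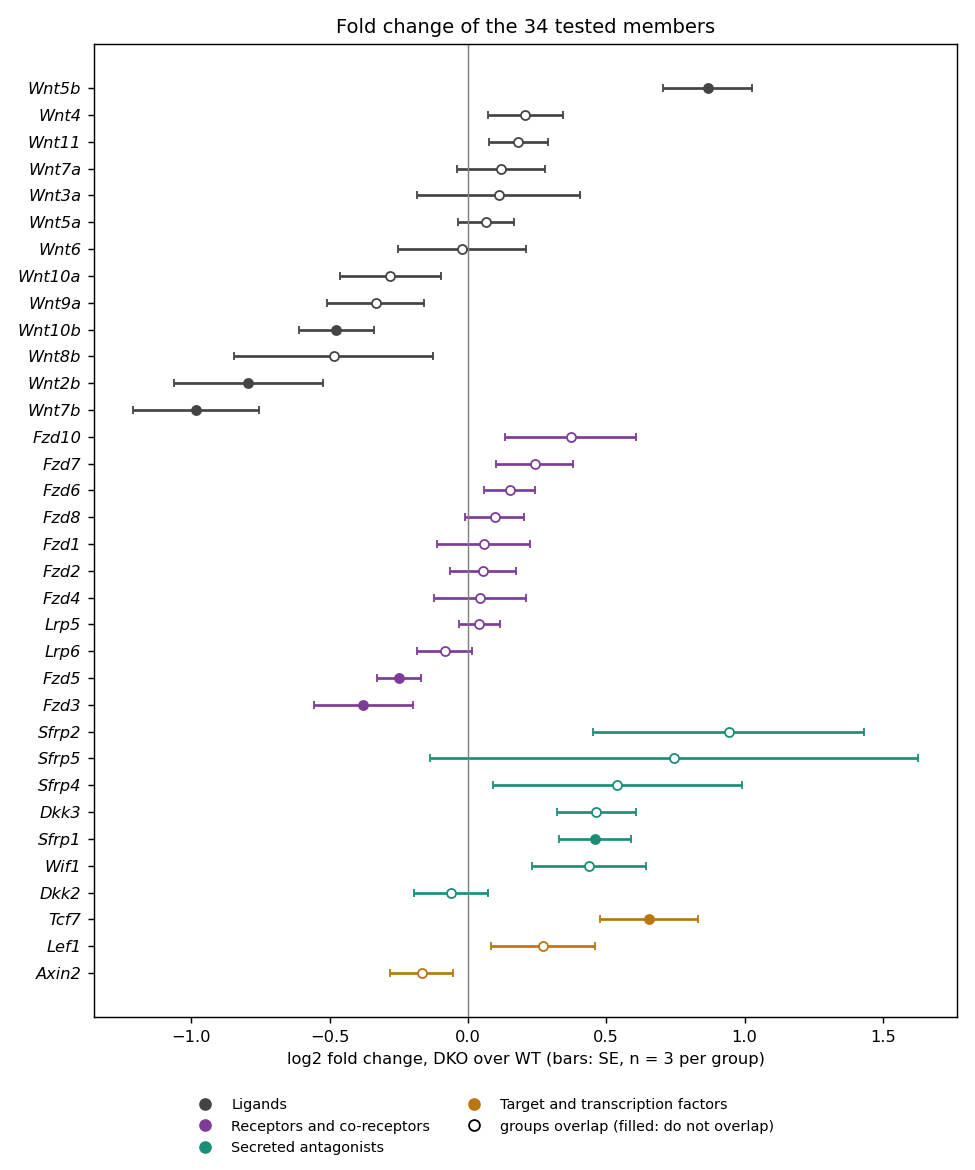
Log2 fold change of DKO over WT for the 34 tested members, grouped by role, with bars for the standard error (edgeR, n = 3 per group) and filled points where the groups do not overlap. The values run from -0.98 for Wnt7b to 0.94 for Sfrp2, and 6 of 7 antagonists lie above 0.

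Among the ligands, Wnt4 and Wnt5a were the most abundant per length. Wnt4, best known from kidney and gonad development, averaged 65.6 ± 3.26 FPKM in DKO and 56.8 ± 9.54 FPKM in WT (SD, n = 3 each). Wnt5a averaged 45.7 ± 2.37 FPKM in DKO and 43.6 ± 4.6 FPKM in WT (SD, n = 3 each). Next over all libraries came Wnt10b, Wnt7b and Wnt10a, at 29.5, 26.5 and 23.5 FPKM. The order differed between the groups: Wnt7b averaged 17.7 ± 1.33 FPKM in DKO, below Wnt10b, Wnt10a, Wnt7a and Wnt6, and 35.2 ± 11.9 FPKM in WT, close to Wnt10b at 34.2 ± 2.41 FPKM (SD, n = 3 each). Wnt4 and Wnt5a together made up 41.6% to 45.1% of the summed ligand FPKM in DKO libraries, against 33.3% to 39.3% in WT libraries, and the groups did not overlap. The ligand sum itself was 255 ± 12.7 FPKM in DKO and 270 ± 12.4 FPKM in WT (SD, n = 3 each). Shares of 1 sum depend on each other. On average Wnt7b took 6.96% of it in DKO and 13.1% in WT, and Wnt10b 9.78% and 12.7%. The CPM values of Wnt4 and Wnt5a themselves overlapped between the groups. Wnt4 lay at 277, 291 and 306 CPM in DKO libraries, against 265, 288 and 202 CPM in WT libraries (log2 fold change 0.21, SE 0.13, and 0.078 without WT 3). Wnt5a lay at 233, 240 and 210 CPM in DKO libraries, against 241, 215 and 197 CPM in WT libraries (0.07, SE 0.10).

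**Figure D3:**
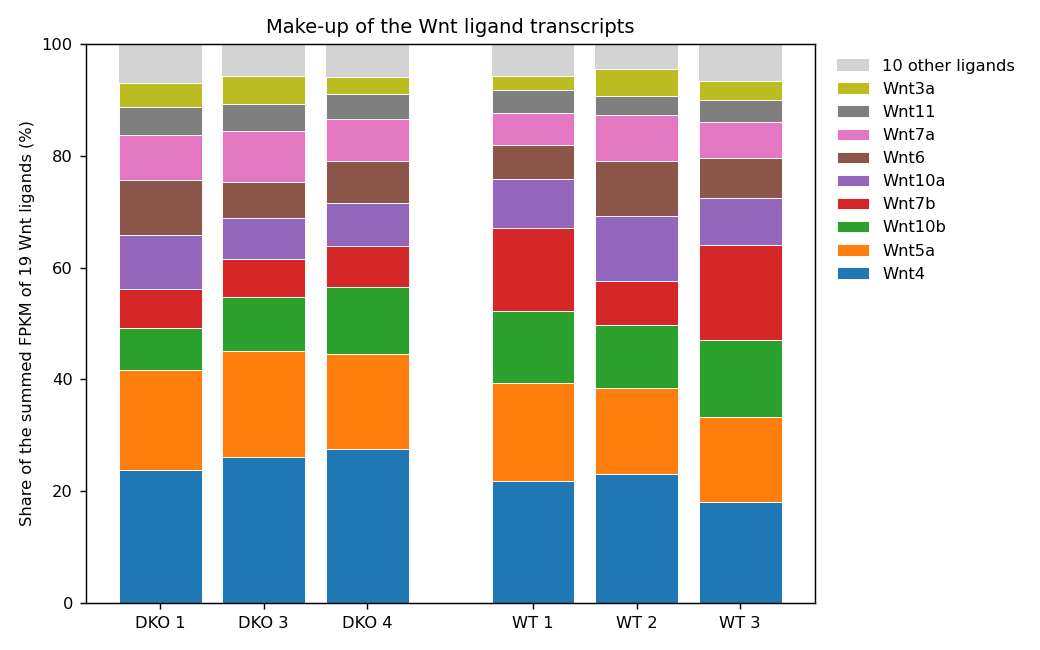
Share of each ligand in the summed FPKM of the 19 Wnt ligands, 1 bar per library, with DKO left and WT right. The Wnt7b band takes 6.66% to 7.25% in DKO libraries, against 14.8% and 16.8% in WT 1 and WT 3 and 7.74% in WT 2.

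Wnt7b had the lowest fold change of the members. This ligand, expressed in epithelia and signalling through beta-catenin (ENSMUSG00000022382, GRCm38 chromosome 15, 85535437 to 85582473, minus strand), stood at 61.7, 56.7 and 62.4 CPM in DKO 1, 3 and 4, against 138, 74.2 and 144 CPM in WT 1, 2 and 3. The DKO libraries lay close together, while WT 2 lay nearer to them than to the other WT libraries. The log2 fold change was -0.98 (SE 0.23 and edgeR adjusted p = 0.0936), and without WT 2 it was -1.23 and passed (adjusted p = 0.00169). Over all alternatives the adjusted p ran from 0.000777 to 0.350. Markers of oral keratinocytes ran the same way, with sums of 124, 85.8 and 103 CPM in the DKO libraries, against 432, 255 and 387 CPM in the WT libraries. Krt6a makes up most of that sum, 4 of the 8 markers exceeded 1 CPM in at least 3 libraries, and Krt78 and Ivl stayed below 1 CPM throughout. Of the 5 markers tested, 4 had a log2 fold change below 0, but only Krt6a had groups that did not overlap. Krt76 went the other way, with a log2 fold change of 0.30 (SE 0.25). The 8 markers of dental epithelium also summed lower, to 8188 to 8319 CPM in DKO and 10360 to 11716 CPM in WT. The part of either in the Wnt7b values was not tested.

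Wnt5b had the highest fold change among the ligands. A relative of Wnt5a that in mice also acts in cartilage growth (ENSMUSG00000030170, chromosome 6, 119432531 to 119544347, minus strand), it stood at 19.3, 16.1 and 14.6 CPM in DKO libraries, against 8.95, 7.80 and 10.6 CPM in WT libraries. Every DKO library lay above every WT library. The mean was 1.82 times as high in DKO (log2 fold change 0.87, SE 0.16), and the edgeR adjusted p of 0.055 missed the threshold. Over all alternatives the adjusted p ran from 0.000216 to 0.248, and the log2 fold change from 0.73 to 0.995. In the FPKM tables, a separate estimate from the same libraries, Wnt5b averaged 7.57 ± 1.29 in DKO and 4.16 ± 0.816 in WT (SD, n = 3 each). Fbxl14 lies on the opposite strand within the span of Wnt5b, and the kit does not mark strand. The 2 genes share 0 annotated exon bases. Fbxl14 had a log2 fold change of 0.12 (SE 0.10 and edgeR adjusted p = 0.583), and the part of its reads in the Wnt5b values was not tested.

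Wnt10b and Wnt2b were the other tested ligands whose groups did not overlap. Wnt10b, a beta-catenin ligand known from bone and hair follicle (ENSMUSG00000022996, chromosome 15, 98770712 to 98778150, minus strand), stood at 48.8, 58.8 and 72.7 CPM in DKO libraries, against 86.6, 78.6 and 85.2 CPM in WT libraries. DKO 4 lay close under WT 2. Its log2 fold change was -0.47 (SE 0.14 and edgeR adjusted p = 0.145, and 0.0446 by DESeq2). Wnt2b (ENSMUSG00000027840, chromosome 3, 104945272 to 104961921, minus strand) was rare, at 2.91, 3.31 and 2.46 CPM in DKO libraries, against 4.54, 3.63 and 6.89 CPM in WT libraries. Its log2 fold change was -0.79 (SE 0.27 and edgeR adjusted p = 0.192), and -0.49 without WT 3. Wnt10a (ENSMUSG00000026167, chromosome 1, 74791516 to 74804179, plus strand) overlapped between the groups, at 63.8, 46.3 and 48.7 CPM in DKO libraries, against 57.6, 81.5 and 53.7 CPM in WT libraries (log2 fold change -0.28, SE 0.18 and edgeR adjusted p = 0.471). WT 2 was its highest library, and without it the log2 fold change was -0.073. The remaining tested ligands, Wnt3a, Wnt6, Wnt7a, Wnt8b, Wnt9a and Wnt11, overlapped too, with log2 fold changes from -0.49 for Wnt8b to 0.18 for Wnt11 and edgeR adjusted p from 0.366 to 0.970.

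Of the ligand genes, 8 sit in 4 close pairs, old neighbours in vertebrate genomes, and 2 pairs had both genes expressed. Wnt6 and Wnt10a lie 6.19 kb apart on chromosome 1 and averaged 20.7 and 23.5 FPKM over the 6 libraries. Wnt3a and Wnt9a lie 16.2 kb apart on chromosome 11 and averaged 10.02 and 7.31 FPKM. The pairs were otherwise uneven or silent. Wnt10b averaged 29.5 FPKM, while Wnt1, 11.7 kb away on chromosome 15, averaged 0.139 FPKM. Wnt9b and Wnt3, 24.3 kb apart on chromosome 11, averaged 0.0188 and 0.0414 FPKM. Wnt6 and Wnt10a were both high in WT 2 and DKO 1. Wnt6 stood at 52.2, 34.2 and 38.2 CPM in DKO libraries, against 32.5, 56.9 and 37.4 CPM in WT libraries (log2 fold change -0.02, SE 0.23).

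The receptors had the smallest fold changes of the 4 roles. Over the 11 tested receptors and co-receptors the median size of the log2 fold change was 0.10, beside 0.28 over the ligands and 0.15 over all tested genes, a description without a test. Fzd6, a receptor of planar cell polarity that orients hair in mice (ENSMUSG00000022297, chromosome 15, 39006034 to 39038188, plus strand), was the most abundant at 50.6 ± 2.23 FPKM in DKO and 45.7 ± 3.29 FPKM in WT (SD, n = 3 each). Its CPM values were 202, 232 and 220 in DKO libraries, against 204, 206 and 179 in WT libraries (log2 fold change 0.15, SE 0.09 and edgeR adjusted p = 0.436). Fzd1 followed at 140, 101 and 108 CPM in DKO libraries, against 133, 90.6 and 111 CPM in WT libraries (0.06, SE 0.17, turning below 0 without DKO 1 or WT 2). The replicates overlapped in both cases.

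The co-receptors were among the steadiest members. Lrp5, whose loss lowers bone mass in humans and mice, stood at 86.7, 91.3 and 82.1 CPM in DKO libraries, against 83.1, 89.5 and 80.2 CPM in WT libraries (log2 fold change 0.04, SE 0.07; -0.007 with total-count scaling). Lrp6 stood at 137, 160 and 146 CPM in DKO libraries, against 161, 169 and 139 CPM in WT libraries (-0.08, SE 0.10). Neither passed the edgeR test (adjusted p = 0.812 and 0.704). Fzd7 lay at 78.2, 75.6 and 76.0 CPM in DKO libraries, against 53.2, 80.5 and 60.9 CPM in WT libraries, so WT 2 alone reached above the DKO libraries (0.24, SE 0.14 and edgeR adjusted p = 0.415). Without WT 2 its log2 fold change was 0.43 (edgeR adjusted p = 0.0524), and without WT 1 it was 0.12.

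For 2 receptors all DKO libraries lay below all WT libraries. Fzd5, an epithelial receptor needed for Paneth cells in the mouse gut (ENSMUSG00000045005, chromosome 1, 64730558 to 64737751, minus strand), stood at 71.5, 84.0 and 75.7 CPM in DKO libraries, against 93.4, 94.3 and 86.7 CPM in WT libraries. The step was small, a log2 fold change of -0.25 (SE 0.08 and edgeR adjusted p = 0.175). Fzd3, which guides axons and planar polarity (ENSMUSG00000007989, chromosome 14, 65192449 to 65262463, minus strand), stood at 14.7, 15.1 and 10.6 CPM in DKO libraries, against 16.1, 21.1 and 15.4 CPM in WT libraries (-0.38, SE 0.18 and edgeR adjusted p = 0.319). The value was -0.22 without WT 2 and -0.23 without DKO 4. In FPKM its groups overlapped, with DKO 3 at 3.82 and WT 3 at 3.45. The other tested receptors, Fzd2, Fzd4, Fzd8 and Fzd10, overlapped, with log2 fold changes from 0.04 for Fzd4 to 0.37 for Fzd10.

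**Figure D4:**
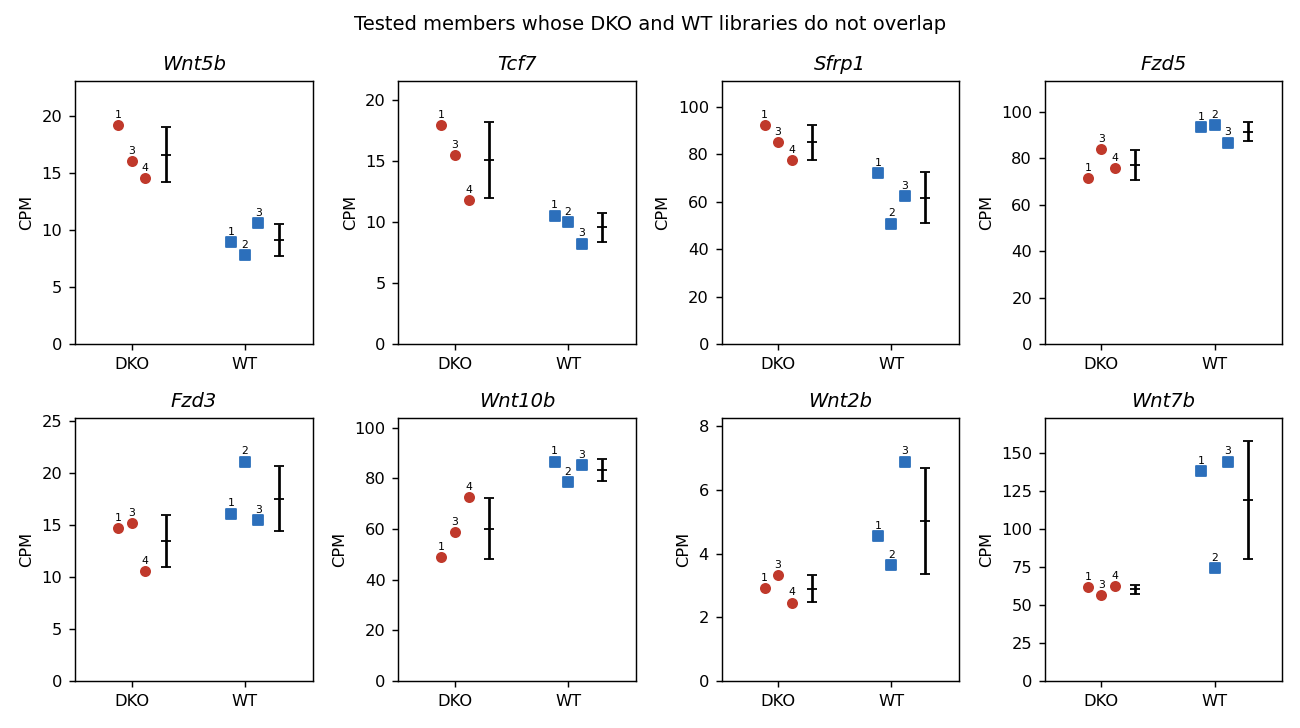
CPM per library for the 8 tested members whose DKO and WT libraries do not overlap, with the replicate number above each point and the mean with its SD (n = 3) beside it, each axis starting at 0. Wnt5b, Tcf7 and Sfrp1 are higher in DKO, the other 5 are lower, and WT 2 of Wnt7b sits near the DKO libraries.

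The antagonists had mostly higher means in DKO, with 0 of 7 called by edgeR. DESeq2 called 2 of 7, Sfrp1 and Dkk3, beside 5.86% of all genes. Of the 7 tested, 6 had a log2 fold change above 0, and their median was 0.46, beside -0.01 over all tested genes and 48.7% of all genes above 0. The summed FPKM of the 9 antagonists was 310, 220.2 and 220.1 in DKO libraries, against 171, 174 and 207 in WT libraries, so the groups stood apart by the small gap between DKO 4 and WT 3. Wif1, which binds Wnt proteins directly (ENSMUSG00000020218, chromosome 10, 121033960 to 121100650, plus strand), was the most abundant member at 110 ± 29.1 FPKM in DKO and 80.3 ± 12.0 FPKM in WT (SD, n = 3 each). Its CPM values were 316, 257 and 179 in DKO libraries, against 155, 214 and 186 in WT libraries. DKO 4 lay inside the WT range (log2 fold change 0.44, SE 0.21 and edgeR adjusted p = 0.318), and without DKO 1 the log2 fold change was 0.24.

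Sfrp1 was the antagonist whose groups did not overlap. This Frizzled-related decoy (ENSMUSG00000031548, chromosome 8, 23411502 to 23449632, plus strand) stood at 92.3, 85.2 and 77.4 CPM in DKO libraries, against 72.1, 50.7 and 62.4 CPM in WT libraries. Its log2 fold change was 0.46 (SE 0.13 and edgeR adjusted p = 0.142, and 0.0355 by DESeq2). Dkk3, a divergent member of its family that does not act on LRP5 or LRP6 as DKK1 does, had a like fold change of 0.46 (SE 0.14 and edgeR adjusted p = 0.162, and 0.0418 by DESeq2). It stood at 198, 149 and 182 CPM in DKO libraries, against 152, 119 and 113 CPM in WT libraries, with DKO 3 just under WT 1. Dkk2 stood at 83.3, 75.7 and 73.8 CPM in DKO libraries, against 93.6, 64.2 and 84.9 CPM in WT libraries (-0.06, SE 0.13, and 0.06 without WT 1).

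The other Sfrp genes varied more between WT replicates than any other tested member. Sfrp4, known from bone cortex (ENSMUSG00000021319, chromosome 13, 19623104 to 19632994, plus strand), stood at 84.6, 41.4 and 43.1 CPM in DKO libraries, against 22.5, 26.3 and 67.4 CPM in WT libraries. DKO 1 and WT 3 were the high libraries of their groups, and the groups overlapped (log2 fold change 0.54, SE 0.45 and edgeR adjusted p = 0.573). The log2 fold change was 0.13 without DKO 1 and 1.21 without WT 3. Sfrp2 stood at 27.4, 12.9 and 37.6 CPM in DKO libraries, against 7.04, 10.5 and 22.9 CPM in WT libraries (0.94, SE 0.49 and edgeR adjusted p = 0.361). Sfrp5, expressed in mouse dental epithelium near the cervical loop, was rare, at 5.22, 0.713 and 0.802 CPM in DKO libraries, against 0.339, 2.33 and 1.39 CPM in WT libraries. The coefficient of variation over the WT libraries was 64.2% for Sfrp4, 61.9% for Sfrp2 and 73.4% for Sfrp5, where the tested members had a median of 17.6% and all tested genes one of 11.1%.

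Mesenchyme markers lay higher in DKO as well. All 11 had a log2 fold change above 0, with a median of 0.33 and 0 called. Their sums were 13871, 10954 and 11939 CPM in DKO 1, 3 and 4, against 10646, 7076 and 11764 CPM in WT 1, 2 and 3, and none of the 11 was below 1 CPM. DKO 1 and WT 3 had the highest sums of their groups, as they had for Sfrp4. The same libraries led for skeletal muscle markers, at 132, 112 and 47.8 CPM in DKO and 62.5, 87.5 and 233 CPM in WT. WT 2 had the lowest mesenchyme sum, with the lowest Sfrp1 and Dkk2 values but the highest Wif1 and Sfrp5 values of the WT libraries. Among the WT libraries, Dkk3 was lowest in WT 3, and Sfrp2, Sfrp4 and Sfrp5 were lowest in WT 1. Other marker lists were higher in DKO too, with 0 called by edgeR in each. All 8 proliferation markers had a log2 fold change above 0 (median 0.68), and they summed to 105 to 133 CPM in DKO and 86.9 to 101 CPM in WT, with no overlap. The log2 fold change was also above 0 for 7 of 7 tested leukocyte markers (median 0.37) and 7 of 8 endothelium markers (median 0.28). The same held for 6 of 7 ameloblast markers (median 0.24). The leukocyte, endothelium and ameloblast sums overlapped between the groups. The part of any of these in the antagonist values was not tested.

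The 3 response genes differed in direction, with 0 called by edgeR. DESeq2 called 1, Tcf7, beside 5.86% of all genes. Axin2, the feedback target most used as a readout of beta-catenin signalling (ENSMUSG00000000142, chromosome 11, 108920349 to 108950783, plus strand), stood at 19.3, 16.7 and 17 CPM in DKO libraries, against 18.1, 19.2 and 22.1 CPM in WT libraries. The groups overlapped (log2 fold change -0.17, SE 0.11 and edgeR adjusted p = 0.492), and without WT 3 the value was -0.077. Lef1 stood at 13, 11.4 and 7.97 CPM in DKO libraries, against 8.44, 8.82 and 9.63 CPM in WT libraries, with DKO 4 the lowest of all (0.27, SE 0.19 and edgeR adjusted p = 0.498). Without DKO 1 the value was 0.12, and without DKO 4 it was 0.45. Tcf7, which encodes TCF1 (ENSMUSG00000000782, chromosome 11, 52252371 to 52283014, minus strand), stood at 18.0, 15.5 and 11.8 CPM in DKO libraries, against 10.5, 9.98 and 8.24 CPM in WT libraries. Every DKO library lay above every WT library, and the mean was 1.57 times as high (log2 fold change 0.66, SE 0.18 and edgeR adjusted p = 0.127, and 0.0268 by DESeq2). TCF1 is also a T-cell factor, and the only T-cell marker listed, Cd3e, stayed below 1 CPM in every library. The 8 leukocyte markers together summed to 313, 248 and 376 CPM in DKO libraries, against 230, 176 and 249.2 CPM in WT libraries. Cd74 and Lyz2 make up most of that sum. Ptprc stood at 8.23, 7.29 and 10.2 CPM in DKO libraries, against 5.98, 5.38 and 9.81 CPM in WT libraries, so its groups overlapped. The part of T cells or other leukocytes in the Tcf7 values was not tested.

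Other genes of the pathway were not called by edgeR either. Of 75 further genes in 5 lists 68 were tested, and edgeR called 0, beside 1.04% of all genes, with 13 at an unadjusted p below 0.05, beside 18.0% of all genes. DESeq2 called 6 (Notum, Cer1, Shisa3, Tcf7l1, Myc and Tnfrsf19), beside 5.86% of all genes. Their groups did not overlap in 14 cases, 20.6% of those tested, beside 23.3% of all genes. Beta-catenin itself, Ctnnb1, stood at 1182, 1253 and 1159 CPM in DKO libraries, against 1277, 1212 and 1088 CPM in WT libraries (log2 fold change 0.01, SE 0.11), a value chosen after it was seen.

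Of the Wnt secretion and surface cofactors, edgeR called 0 of 14 tested genes, and DESeq2 called Notum, beside 5.86% of all genes. Notum, a secreted enzyme that strips the lipid from Wnt proteins, stood at 7.37, 9.07 and 4.71 CPM in DKO libraries, against 3.48, 2.71 and 3.66 CPM in WT libraries. All DKO libraries lay above all WT libraries (log2 fold change 1.10, SE 0.26 and edgeR adjusted p = 0.0968, and 0.00649 by DESeq2). It passed in edgeR without a low-count filter (adjusted p = 0.0326). Lgr5, an R-spondin receptor and stem cell marker, was near the floor, at 0.451, 1.99 and 1.07 CPM in DKO libraries, against 0.170, 0.145 and 0.479 CPM in WT libraries (2.11, SE 0.68 and edgeR adjusted p = 0.174). Porcn, which adds the lipid to Wnt proteins, and Znrf3, which clears Frizzled from the surface, had log2 fold changes of -0.33 and -0.21 (edgeR adjusted p = 0.289 and 0.278).

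Of the other inhibitors, edgeR called 0 of 9 tested genes, and DESeq2 called Cer1 and Shisa3, beside 5.86% of all genes. Cer1, a secreted inhibitor of Nodal, BMP and, in frogs, Wnt signals, stood at 6.22, 8 and 6.26 CPM in DKO libraries, against 13.4, 18.8 and 11.1 CPM in WT libraries. All DKO libraries lay below all WT libraries (log2 fold change -1.08, SE 0.22 and edgeR adjusted p = 0.0653, and 0.000537 by DESeq2). It passed in edgeR with total-count scaling (adjusted p = 0.0397) and without a filter (adjusted p = 0.0113). Shisa3, Nkd1 and Apcdd1, which dampen Wnt signals at the receptor, at Dishevelled and at the membrane, had log2 fold changes of 0.95, 0.59 and 0.42 (edgeR adjusted p = 0.158, 0.177 and 0.246). The DESeq2 adjusted p of Shisa3 was 0.0491.

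Among commonly used beta-catenin targets edgeR called 0 of 13 tested genes, and directions differed. DESeq2 called Myc, Tnfrsf19 and Notum, beside 5.86% of all genes. Myc, the growth regulator, stood at 16.5, 9.63 and 11.8 CPM in DKO libraries, against 41.4, 18.6 and 31.4 CPM in WT libraries (log2 fold change -1.27, SE 0.31 and edgeR adjusted p = 0.101, and 0.000994 by DESeq2). It passed in edgeR without a filter (adjusted p = 0.0145). As for Wnt7b, WT 2 was the lowest WT library, and without it Myc had a log2 fold change of -1.52 and passed (adjusted p = 0.0247). Tnfrsf19, a receptor of the tumour necrosis factor family, stood at 196, 173 and 148 CPM in DKO libraries, against 281, 229 and 219 CPM in WT libraries (-0.50, SE 0.13 and edgeR adjusted p = 0.127, and 0.0169 by DESeq2). Notum, Nkd1, Lgr5 and Apcdd1, which belong to this list too, had higher means in DKO.

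Of the destruction complex and nuclear partners, edgeR called 0 of 25 tested genes, and the median log2 fold change was -0.04. DESeq2 called Tcf7l1, beside 5.86% of all genes. Tcf7l1, a factor that mostly represses targets, stood at 28.5, 33.0 and 29.6 CPM in DKO libraries, against 17.6, 21.6 and 25.0 CPM in WT libraries. The groups did not overlap (log2 fold change 0.50, SE 0.14 and edgeR adjusted p = 0.126, and 0.0331 by DESeq2). Dvl1, Dvl3 and the corepressor gene Tle2 had log2 fold changes of -0.20, -0.15 and -0.68 (edgeR adjusted p = 0.247, 0.310 and 0.252), and Tle2 was at -0.27 without WT 3. In the planar polarity list edgeR and DESeq2 each called 0 of 13 tested genes, with 2 at an unadjusted edgeR p below 0.05, and the log2 fold changes all lay between -0.31 and 0.16. Its smallest adjusted p were those of Daam1 (-0.27 and edgeR adjusted p = 0.191), Celsr2 (-0.31, adjusted p = 0.205), Vangl2 and Prickle2 (0.11 and 0.16, adjusted p = 0.741 and 0.492).

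Calls on the members differed between settings. Without a low-count filter, edgeR called 2 of 41 members, Wnt5b and Wnt7b (adjusted p = 0.0106 and 0.0111), beside 554 of all 25264 genes. Without WT 2 it called 1 of 35 members, Wnt7b, beside 335 of all 15046 genes. None of the 6 members with the DESeq2 call changed sign under any of the 17 alternatives. They were chosen by that call, and the alternatives reuse the same libraries, so the stable sign is no separate support.

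**Figure D5:**
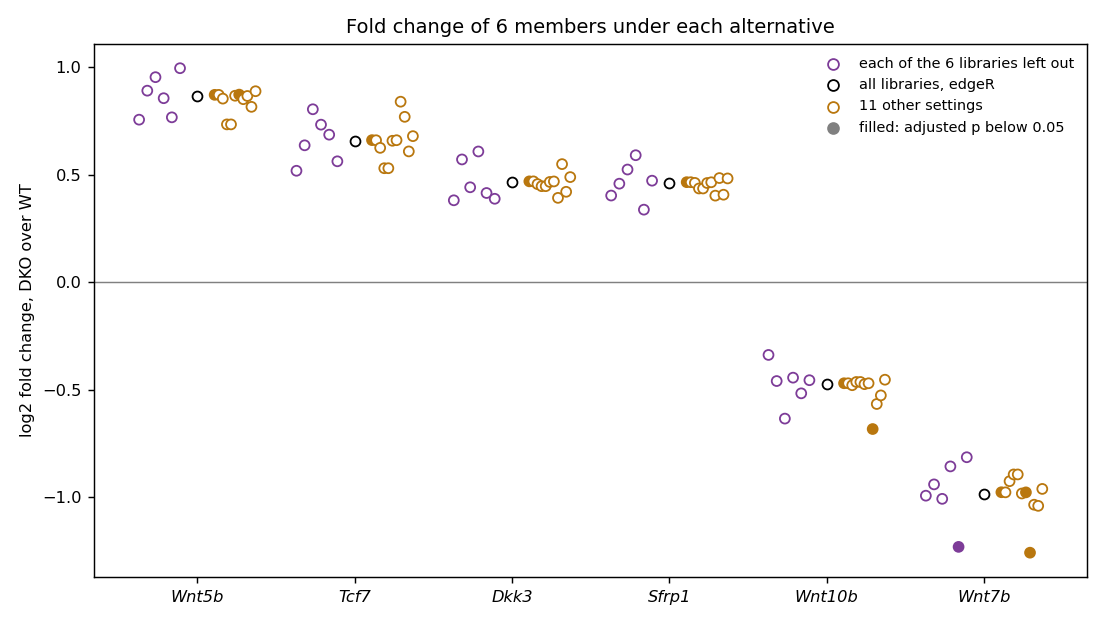
Log2 fold change of DKO over WT for the 6 members that DESeq2 called, with each library left out (left of each name), with all libraries by edgeR (centre) and under 11 other settings (right), filled where the adjusted p is below 0.05. Signs hold throughout for these members, which were chosen by a call on the same libraries. No single library left out brings a call except WT 2 for Wnt7b.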

How the data were processed

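RNA was measured in 6 enamel organ libraries, 3 DKO and 3 WT. Per the labels' protocols, libraries were made from 500 ng of total RNA with the TruSeq v2 kit and 12 cycles of PCR, and sequenced as 150 nt paired ends. Raw counts, as deposited by the authors, give whole reads for each Ensembl identifier. FPKM values came from deposited Cufflinks output, per the file headers, and served to compare levels between genes. GRCm38, Trimmomatic 0.32, Cufflinks 2.2 and HTSeq are named without a role, per the submitters' processing notes, and neither aligner nor annotation release is given in the sources used here.

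For DKO against WT, all genes were fitted in edgeR 4.0.16 (quasi-likelihood F test, R 4.3.3), after filterByExpr and TMM, without covariates, and p-values were Benjamini-Hochberg adjusted over 14721 genes. A standard error is the log2 fold change over the square root of F. The steps ran correctly on simulated counts. Alternatives used DESeq2 1.42.0, limma 3.58.1 on log2(FPKM + 1) or log2(FPKM + 0.1) with and without a minimum of 1 FPKM in 3 libraries, other scalings, no filter or a mean of 50 counts, a replicate block, a covariate marking Xist over 100 CPM, and each library left out. Any gene whose FPKM estimation failed in 1 or more libraries, 9 in all, stayed out of limma. FPKM rows sharing an identifier were summed.

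Positions are 1-based, from GENCODE vM21 on GRCm38, which may not be the authors' release. Members, lists and rules were chosen with earlier results of these data known. Named are members whose groups do not overlap, the 5 most abundant of each role, Axin2, Lef1 and Tcf7, and up to 4 genes per pathway list by adjusted p; others are named as accounted for or as chosen after their values were seen. Counting error covers reads, which without molecular identifiers are not independent molecules.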

Additional observations from a re-analysis of the deposited data

How the results depend on the processing

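The count of members called was 0 by edgeR as reported and in most alternatives, but 6 by the DESeq2 Wald test, 2 without a low-count filter, 3 with the replicate block (Wnt3a at 0.67, adjusted p = 0.042 by edgeR, Wnt7b at -1.26, 0.00607, and Wnt10b at -0.68, 0.0458), and from 0 to 1 with a library left out (1 without WT 2). Pathway list genes called numbered 0 as reported, 6, 3 and 1 (Myc, adjusted p = 0.00752) under those same 3 settings, 1 with total counts, and from 0 to 1 with a library left out. Genes called in all numbered 153, but 862 by DESeq2, 554 without a filter, 328 with the replicate block, 71 with the Xist term, 77 by limma with either pseudocount, 11 by limma without a filter, and from 21 (without DKO 4) to 335 (without WT 2) with a library left out; 23 were called without DKO 3, 30 without WT 3, 84 without WT 1 and 102 without DKO 1. Same-numbered DKO and WT libraries deviated together weakly or not at all (correlations 0.19 for number 1 and -0.02 for number 3). With so few shared numbers, these correlations cannot decide whether the numbers pair the libraries. DKO 4 and WT 2 have no same-numbered partner, so the contrast in the block fit rests on DKO 1, DKO 3, WT 1 and WT 3 alone. The block also put Wif1 at 0.75, Wnt10a at -0.033 and Fzd3 at -0.079, none called. Signs of values near 0 turned 6 times: Fzd1 to -0.033 with the block, Lrp5 to -0.0070 with total counts, and, among fits with a library left out, Dkk2 (from -0.202 to 0.061, above 0 without WT 1), Fzd1 (from -0.093 to 0.209, below 0 without DKO 1 or WT 2) and Vangl2 (from -0.0069 to 0.246, below 0 without DKO 3). The cause was not tested. No scaling moved the median of all genes by more than 0.06 on the log2 scale. For the 9 members that were not tested, depth sets the limit, at no more than 12 counts in a library.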
